A study of Mus musculus with 12 samples.

Results

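The genes of 9 secreted acute-phase and antimicrobial proteins, Saa1, Saa2, Saa3, Hp, Orm1, Lcn2, Slpi, Ptx3 and Cp, were followed through cultures of mouse paw fibroblasts. They were chosen by name. All 9 were found by symbol among the 55413 genes of the deposited expression table, and 8 of them had the mean expression of at least 3 log2 units required for testing, as did 16459 genes in all. Orm1 lay below it and is given by its values. Saa2 passed through its level in 2 of the groups, since its values in the other groups stayed under that minimum. Counts and medians over the 8, and the p-values of Saa2, are therefore descriptions. RNA was sequenced from fibroblast cultures of BALB/c paws injected with monosodium urate (MSU) crystals, the agent of gouty arthritis. I-BET151, the compound tested, blocks the bromodomains of BET proteins, which bind acetylated histones at active genes. Each of 4 groups held 3 libraries. In vitro treated cells came from primed paws and were kept in 1 µM I-BET151 for the last 24 h of culture, and whether their mice had received vehicle is not stated. In vivo treated cells came from primed paws of mice injected intraperitoneally with I-BET151 at 20 mg/kg per day, beginning 1 day ahead of the first crystals. Primed vehicle cells came from left paws that had received crystals on day 0 and day 9, in mice given injections without the compound. Non-primed vehicle cells came from right paws given crystals on day 9 alone, so the paw side changed together with priming. Every culture was started from collagenase-digested paws, pooled 2 to 3 paws, went through 5 passages, and had its RNA taken on day 18 of the protocol. The labels give neither the age of the mice nor the number of animals behind a group, so that p-values describe the spread between these pooled cultures, which may be technical.

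Acute-phase proteins are secreted in inflammation, mostly by the liver, when interleukin-6 and interleukin-1 act through STAT3, C/EBP and NF-kB factors on their genes. Several of them are also made outside the liver, by fibroblasts, macrophages and epithelia, where they bind iron, haem, microbes or proteases at the site of injury. In mice, Saa1 and Saa2 are the serum amyloid A forms that travel with lipoproteins, while Saa3 is the form made mainly in tissues. Lcn2 and Ptx3 are commonly used as readouts of NF-kB-dependent secretion by stromal cells.

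The 3 serum amyloid genes are neighbours on chromosome 7 of GRCm38. By the GENCODE annotation (release M21) Saa3 spans 46711998 to 46715700 on the minus strand, Saa1 spans 46740497 to 46742980 on the minus strand and Saa2 spans 46751790 to 46754313 on the plus strand. The other members lie on chromosome 2 (Lcn2, 32384633 to 32388252, and Slpi, 164354070 to 164389095), chromosome 3 (Ptx3, 66219910 to 66225805, and Cp, 19957054 to 20009145), chromosome 4 (Orm1, 63344560 to 63348163) and chromosome 8 (Hp, 109575128 to 109579172), and all 9 are protein-coding. The sequences shown are the 250 bases before the RefSeq start (GRCm38.p6) of the 3 serum amyloid genes, whose sequences differ, and of Lcn2, which was called with them. They are read 5′ to 3′ on the gene's strand, and capitals mark matches to the motifs named after them.
Saa3: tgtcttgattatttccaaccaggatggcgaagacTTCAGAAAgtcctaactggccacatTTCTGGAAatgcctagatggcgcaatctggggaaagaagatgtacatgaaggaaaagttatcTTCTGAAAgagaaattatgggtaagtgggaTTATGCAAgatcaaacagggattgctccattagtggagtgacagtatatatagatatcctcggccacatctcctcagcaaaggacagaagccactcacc
Saa1: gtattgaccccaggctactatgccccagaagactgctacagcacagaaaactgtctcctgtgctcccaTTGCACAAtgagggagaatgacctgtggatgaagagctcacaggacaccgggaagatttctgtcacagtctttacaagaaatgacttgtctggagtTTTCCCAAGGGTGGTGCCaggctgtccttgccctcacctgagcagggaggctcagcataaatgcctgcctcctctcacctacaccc
Saa2: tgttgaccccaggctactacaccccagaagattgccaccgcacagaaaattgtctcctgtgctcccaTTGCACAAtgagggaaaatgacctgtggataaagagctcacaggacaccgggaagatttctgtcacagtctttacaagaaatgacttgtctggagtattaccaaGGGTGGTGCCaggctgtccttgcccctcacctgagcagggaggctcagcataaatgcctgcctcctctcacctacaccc
Lcn2: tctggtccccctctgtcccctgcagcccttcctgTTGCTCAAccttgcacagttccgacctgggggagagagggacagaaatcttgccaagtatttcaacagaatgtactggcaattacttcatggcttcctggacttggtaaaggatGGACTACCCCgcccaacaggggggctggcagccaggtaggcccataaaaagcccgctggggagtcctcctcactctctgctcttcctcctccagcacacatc

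The windows are chr7:46715677-46715926 (minus strand) for Saa3, chr7:46742981-46743230 (minus strand) for Saa1, chr7:46751583-46751832 (plus strand) for Saa2 and chr2:32387740-32387989 (minus strand) for Lcn2. A set of 4 patterns was searched on both strands, over these bases and the 50 that follow the start. They were GGG and CC separated by any 5 bases for NF-kB, TTNNGNAA for C/EBP, TTCNNNGAA for STAT factors and TATAAA for the TATA box. Aligned end to end, the Saa1 and Saa2 windows were identical at 94.8% of 251 positions. Saa3 matched Saa1 at 48.5% and Saa2 at 47.8% of aligned positions. The unrelated Lcn2 matched Saa1 at 52.2%, Saa2 at 53.2% and Saa3 at 46.2%. The Saa3 window held 4 C/EBP matches and no NF-kB match. Saa1 and Saa2 shared the C/EBP match TTGCACAA and the NF-kB match GGGTGGTGCC, and Saa1 alone had a further C/EBP match, which adjoins the NF-kB match without a gap and so runs into it in capitals. Lcn2 held 1 match to each of these 2 patterns, and none of these 4 windows held the STAT or TATA pattern as written. The C/EBP pattern was present in 40.7% of 32851 mouse promoter windows of 300 bases and the NF-kB pattern in 50.8%, so such matches are common. Windows for 7 of the 9 members were in the table used, and those of Hp and Orm1 were not analysed here.

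Expression values are regularized log2 values (rlog), the logarithm of size-factor-scaled read counts drawn toward each gene's mean where reads are few. Differences are therefore in log2 units, with those of weakly expressed genes such as Saa2 and Orm1 understated, and sequencing depth is unknown. A gene is said to rise or fall where the adjusted p of limma, a linear model fitted to all tested genes, was under 0.05. Libraries stood apart in their pigment-cell transcripts. The mean over 12 pigment-cell markers lay between 13.19 and 14.61 in all 3 non-primed libraries and in in vivo libraries 2 and 3, and between 5.41 and 6.31 in the other 7 libraries. The mean over 10 fibroblast markers was 7.45 to 11.73 in the 5 pigment-rich libraries and 15.21 to 15.85 in the other 7. In these bulk libraries, fewer cells of a type cannot be told apart from less RNA per cell. No comparison of the non-primed group with all 3 libraries of another group is free of this split. The non-primed libraries and in vivo libraries 2 and 3 lay on its pigment-rich side. In vivo library 1, the in vitro libraries and the primed vehicle libraries all lay on its fibroblast-rich side.

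**Figure D1:**
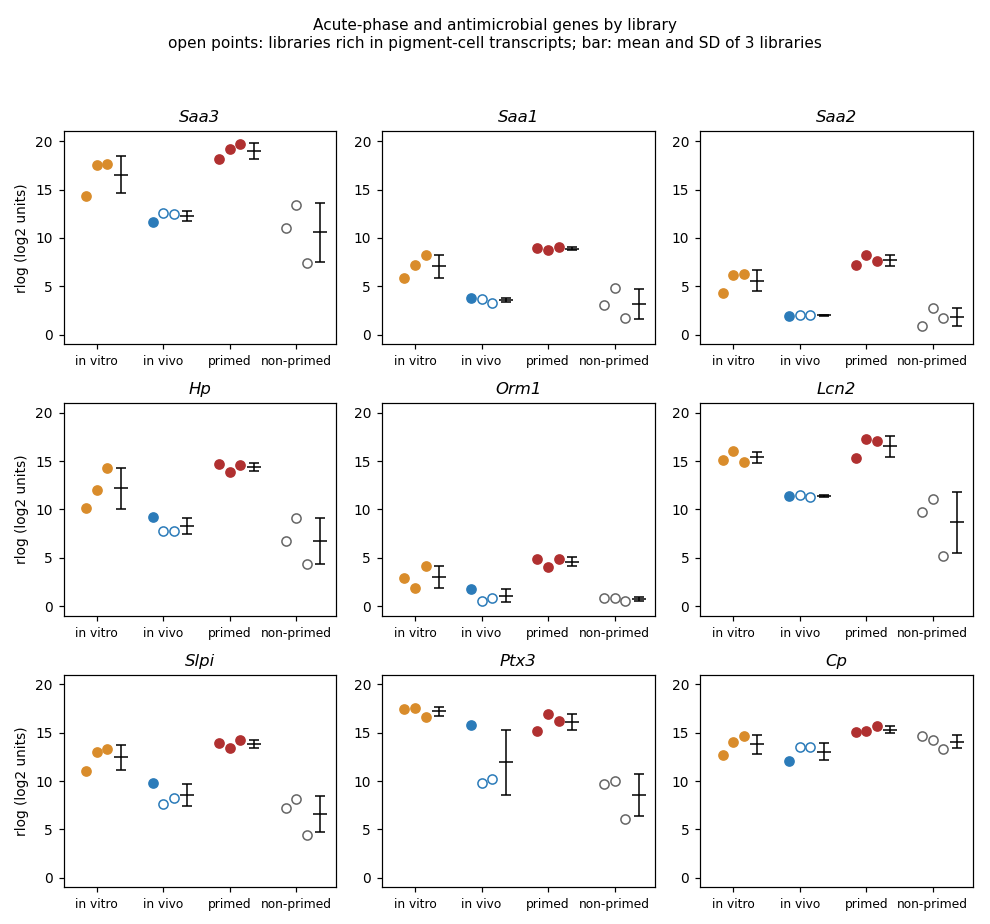
Level of each gene (rlog, log2 units) in each of the 12 libraries, by group, with the mean and SD of 3 libraries beside the points and open points for libraries rich in pigment-cell transcripts. Saa3, Saa1, Saa2, Hp, Lcn2 and Slpi lie lower in all 3 in vivo libraries than in every primed vehicle library, while Ptx3 in in vivo library 1 (15.8) lies with the primed vehicle libraries.

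Primed cells were compared with non-primed cells, both from vehicle-treated mice, to ask what an earlier crystal exposure leaves in the expression of these proteins. The 3 serum amyloid genes, Hp, Lcn2, Slpi and Ptx3 were higher in primed cells, by 5.71 to 8.43 log2 units, and Cp differed least. Saa3 stood at 18.12, 19.19 and 19.75 in the primed libraries and at 10.97, 13.43 and 7.36 in the non-primed ones. The groups did not overlap, although the non-primed libraries were far apart. The rise of Saa3 was 8.43 ± 1.35 log2 units (± SE here and in the tests that follow, with 3 libraries in each group; adjusted p = 0.00165). Saa1 stood at 8.92, 8.71 and 9.02 in primed libraries and at 3.06, 4.77 and 1.71 in non-primed ones, and rose by 5.71 ± 0.74 (adjusted p = 0.000884). Saa2 stood at 7.14, 8.24 and 7.6 in primed libraries and at 0.87, 2.74 and 1.7 in non-primed ones. It rose by 5.89 ± 0.59 (adjusted p = 0.000508), a p that is a description, since Saa2 passed the minimum through its higher groups. All 3 genes of the cluster thus separated the groups without overlap. Saa1 and Saa2 share 31.1% of the 50-base stretches of the Saa1 transcripts, so reads could be split between them or lost, whereas 0.4% are shared with Saa3.

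Among the plasma carriers of haemoglobin, small molecules and copper, Hp and Orm1 separated the groups widely and Cp narrowly. Hp, which encodes haptoglobin, the scavenger of free haemoglobin, stood at 14.72, 13.87 and 14.58 in primed libraries and at 6.71, 9.09 and 4.34 in non-primed ones, and rose by 7.68 ± 1.19 (adjusted p = 0.00154). Orm1, which encodes alpha-1-acid glycoprotein, stood at 4.84, 4.05 and 4.87 in primed libraries and at 0.88, 0.86 and 0.55 in non-primed ones. Its groups did not overlap, and with no minimum on expression its difference was 3.82 ± 0.58 (adjusted p = 0.00187 over 36277 genes). Cp, which encodes the copper-carrying ferroxidase ceruloplasmin, stood at 15.1, 15.13 and 15.7 in primed libraries and close to that, at 14.62, 14.27 and 13.35, in non-primed ones. Its difference of 1.23 ± 0.55 did not pass (adjusted p = 0.0836). In a fit of these 6 libraries alone its error was 0.35 and it rose (adjusted p = 0.026), as did 27.7% of all genes.

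Among the antimicrobial and pattern-binding proteins, Lcn2 encodes lipocalin 2, which withholds iron from bacteria by binding their siderophores. It stood at 15.32, 17.27 and 17.04 in primed libraries and at 9.72, 11.13 and 5.15 in non-primed ones, and rose by 7.88 ± 1.21 (adjusted p = 0.0015). Slpi, an inhibitor of neutrophil elastase and related proteases, stood at 13.89, 13.42 and 14.28 in primed libraries and at 7.17, 8.11 and 4.46 in non-primed ones. It rose by 7.28 ± 0.93 (adjusted p = 0.000861). Ptx3, a long pentraxin that tags microbes for complement and phagocytes, stood at 15.23, 16.94 and 16.18 in primed libraries and at 9.72, 9.99 and 6.08 in non-primed ones, and rose by 7.52 ± 1.48 (adjusted p = 0.00315). For each of these genes non-primed library 3 was the lowest of all 12 libraries. That library was lowest within its group for 8 of the 9 members and also had the lowest fibroblast marker mean, 7.45 against 10.8 and 11.73 in non-primed libraries 1 and 2.

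In all, 7 of the 8 members tested rose in primed cells and none fell, where 28.9% of all genes tested rose and 22.9% fell. The groups did not overlap, with primed higher, for all 8, against 33.7% of all genes. The median difference was 7.4 over the 8 members and 0.05 over all genes. Pigment-cell marker means were 6.02 to 6.31 in the primed libraries and 13.29 to 14.61 in the non-primed ones, and all 12 of those markers fell. Because every non-primed library was pigment-rich, priming and this split cannot be told apart for any member.

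The in vivo treated cells were set against primed vehicle cells, which asks what the inhibitor, given to the animals around both crystal injections, changed in these genes. The serum amyloid genes, Hp, Lcn2 and Slpi were lower by 5.14 to 6.79 log2 units in cells of treated mice, and Cp by 2.26. The sizes with in vivo library 1 alone, given after the single genes, were smaller for Slpi and larger for Cp. Saa3 stood at 11.64, 12.54 and 12.49 in in vivo libraries 1, 2 and 3 and at 18.12, 19.19 and 19.75 in primed vehicle libraries. It fell by 6.79 ± 1.35 (adjusted p = 0.00622). Saa1 stood at 3.74, 3.65 and 3.31 in in vivo libraries and at 8.92, 8.71 and 9.02 in vehicle libraries, and fell by 5.32 ± 0.74 (adjusted p = 0.00196). Saa2 stood at 1.92, 2.01 and 2 in in vivo libraries and at 7.14, 8.24 and 7.6 in vehicle libraries. It fell by 5.68 ± 0.59 (adjusted p = 0.000938, again a description, since the in vivo values lie under the minimum). The 3 in vivo libraries differed from one another by less than 1 log2 unit for each gene of the cluster. Their pigment-cell marker means were 5.41, 13.23 and 13.19. In these libraries Saa2 lay under the minimum of 3 and Saa1 close to it, where rlog draws values together. The part of the pigment-cell split in these levels was not tested.

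Lcn2 was as even within the treated group, at 11.44, 11.46 and 11.32 in in vivo libraries and at 15.32, 17.27 and 17.04 in vehicle libraries. It fell by 5.14 ± 1.21 (adjusted p = 0.0113). Hp stood at 9.25, 7.82 and 7.73 in in vivo libraries and at 14.72, 13.87 and 14.58 in vehicle libraries, and fell by 6.13 ± 1.19 (adjusted p = 0.00588). Slpi stood at 9.8, 7.65 and 8.21 in in vivo libraries and at 13.89, 13.42 and 14.28 in vehicle libraries, and fell by 5.31 ± 0.93 (adjusted p = 0.00402). For both genes in vivo library 1 was the highest of the treated group and still lay more than 3 units below the lowest vehicle library. Orm1 stood at 1.8, 0.51 and 0.88 in in vivo libraries and at 4.84, 4.05 and 4.87 in vehicle libraries, with no overlap. With no minimum on expression its difference was -3.52 ± 0.58 (adjusted p = 0.00395).

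Ptx3 in in vivo library 1 lay among the vehicle libraries, and Cp fell least of the tested members. Ptx3 stood at 15.8 in in vivo library 1 but at 9.82 and 10.22 in the pigment-rich in vivo libraries 2 and 3, and at 15.23, 16.94 and 16.18 in vehicle libraries. The groups overlapped, and the fall of 4.17 ± 1.48 (adjusted p = 0.0469) was lost in the fit of these 6 libraries alone (adjusted p = 0.108), in which 13.8% of all genes fell. It was also lost when in vivo library 2 or 3 or any vehicle library was left out (adjusted p = 0.0711 to 0.171), and with no minimum on expression (adjusted p = 0.074). Cp stood at 12.06, 13.51 and 13.57 in in vivo libraries and at 15.1, 15.13 and 15.7 in vehicle libraries, and fell by 2.26 ± 0.55 (adjusted p = 0.0124). For Cp, as for Saa3, the fibroblast-rich library was the lowest of the treated group, while Saa2 was nearly level there (1.92, 2.01 and 2).

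All 8 members tested fell in cells of treated mice, where 21.8% of all genes fell and 17.9% rose. The groups did not overlap, with treated lower, for 7 of the 8, against 26.4% of all genes. The median difference was -5.32 over the 8 members and -0.05 over all genes. With the fibroblast-rich in vivo library 1 alone, in a fit of the 7 fibroblast-rich libraries, 7 of the 8 members fell, where 11.8% of all genes fell. That fit assumes that the lone library varies like the other groups. In it Saa3 changed by -7.38 ± 1.30 (adjusted p = 0.0129), Saa1 by -5.14 ± 0.78, Saa2 by -5.74 ± 0.81, Lcn2 by -5.11 ± 0.77, Hp by -5.14 ± 1.32, Slpi by -4.06 ± 0.84 and Cp by -3.25 ± 0.66. Ptx3 differed by -0.32 ± 0.63 in that fit (adjusted p = 0.75). In vivo library 1 had a pigment-cell marker mean of 5.41 (vehicle 6.02 to 6.31) and a fibroblast marker mean of 15.29 (vehicle 15.49 to 15.85). Without that library Slpi fell by 5.94 and Cp by 1.77.

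**Figure D2:**
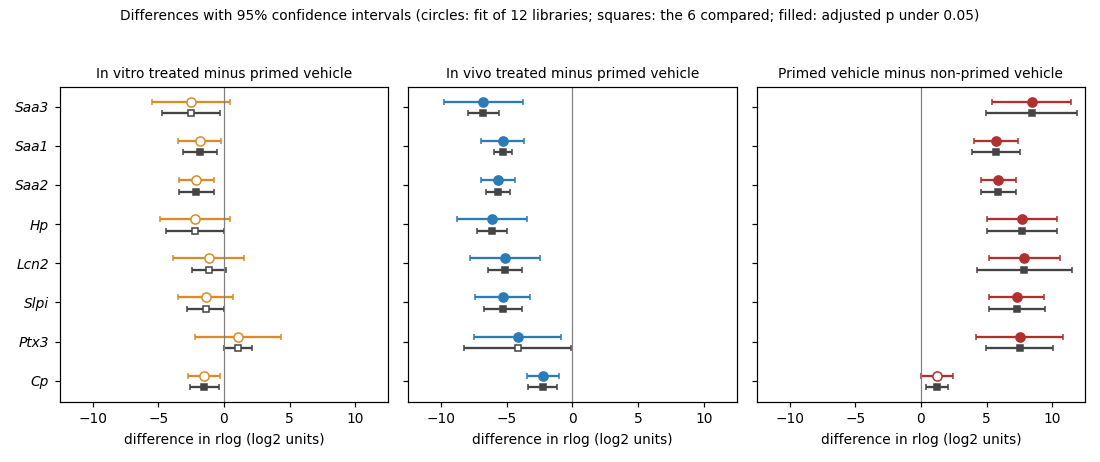
Difference in rlog (log2 units) with its 95% confidence interval for each tested gene in 3 comparisons, from the fit of all 12 libraries (circles) and of the 6 libraries compared (squares), filled where the adjusted p was under 0.05. The intervals lie below 0 for all 8 genes in in vivo treated cells, though that of Ptx3 from the 6 libraries compared ends at -0.10. In in vitro treated cells those of Saa1, Saa2 and Cp lie below 0 in both fits, and the others lie close to or across 0.

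The in vitro treated cells were set against the same primed vehicle cells, which asks what 24 h with the inhibitor did to established cultures. For all 8 tested members the difference was smaller in size than in in vivo treated cells, and it had the opposite sign for Ptx3. With in vivo library 1 alone, the in vivo difference of Ptx3 (-0.32) was smaller in size than the in vitro one (1.08). Saa3 stood at 14.31, 17.58 and 17.68 in in vitro libraries and at 18.12, 19.19 and 19.75 in vehicle libraries. The groups did not overlap, but the difference of -2.50 ± 1.35 did not pass (adjusted p = 0.291). Saa1 stood at 5.8, 7.14 and 8.19 in in vitro libraries and at 8.92, 8.71 and 9.02 in vehicle libraries (-1.84 ± 0.74, adjusted p = 0.165). Saa2 stood at 4.31, 6.12 and 6.26 in in vitro libraries and at 7.14, 8.24 and 7.6 in vehicle libraries (-2.10 ± 0.59, adjusted p = 0.0691). Cp stood at 12.7, 14.06 and 14.65 in in vitro libraries and at 15.1, 15.13 and 15.7 in vehicle libraries (-1.51 ± 0.55, adjusted p = 0.132). These 4 genes and Slpi separated the groups, while Hp, Lcn2, Ptx3 and Orm1 did not.

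Hp varied most among treated cultures, at 10.18, 12.02 and 14.32 in in vitro libraries against 14.72, 13.87 and 14.58 in vehicle libraries, and differed by -2.22 ± 1.19 (adjusted p = 0.29). Slpi stood at 11.01, 13.06 and 13.35 in in vitro libraries and at 13.89, 13.42 and 14.28 in vehicle libraries, a difference of -1.39 ± 0.93 (adjusted p = 0.407). Lcn2 stood at 15.14, 16.08 and 14.95 in in vitro libraries and at 15.32, 17.27 and 17.04 in vehicle libraries, a difference of -1.16 ± 1.21 (adjusted p = 0.62). Ptx3 was the member with a positive difference. It stood at 17.43, 17.54 and 16.63 in in vitro libraries and at 15.23, 16.94 and 16.18 in vehicle libraries, a difference of 1.08 ± 1.48 (adjusted p = 0.712). Orm1 stood at 2.92, 1.89 and 4.15 in in vitro libraries and at 4.84, 4.05 and 4.87 in vehicle libraries. In vitro library 1 was the lowest of its group for 6 of the 9 members and library 3 the highest for 7.

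None of the 8 members passed in limma's fit of all 12 libraries, where 4.51% of all genes changed and 2.76% of all genes fell. In that fit 3 of the 8 had an unadjusted p under 0.05, against 23.8% of all genes. The groups did not overlap, with treated lower, for 5 of the 8, against 25.7% of all genes. The fit of the 6 libraries compared, which leaves out the uneven non-primed and in vivo groups, gave smaller errors. In it Saa1 (± 0.55, adjusted p = 0.0441), Saa2 (± 0.57, adjusted p = 0.0317) and Cp (± 0.47, adjusted p = 0.0493) fell, 3 of 8 members, where 16.9% of all genes fell and 13.4% rose. The 95% confidence interval of that fit ran from -4.69 to -0.30 for Saa3 (adjusted p = 0.0835), from -2.45 to 0.14 for Lcn2 (adjusted p = 0.152) and from 0.03 to 2.14 for Ptx3 (adjusted p = 0.109). No member passed under the other alternatives run for this comparison, each left-out library included. Pigment-cell marker means were low on both sides, 5.52 to 5.99 in in vitro libraries and 6.02 to 6.31 in vehicle libraries, and fibroblast marker means were 15.21 to 15.54 in in vitro libraries and 15.49 to 15.85 in vehicle libraries.

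Cells treated in vitro were then compared with cells of treated mice. The comparisons of each with primed vehicle share the vehicle libraries, so their difference was tested directly between the treated groups. The 7 tested members other than Cp were higher in every in vitro library than in every in vivo library, by 3.48 (Saa1) to 5.25 (Ptx3) log2 units, and for Cp the groups overlapped (0.76 ± 0.55). Orm1 was also higher without overlap, at 2.92, 1.89 and 4.15 in in vitro libraries and at 1.8, 0.51 and 0.88 in in vivo libraries, a difference of 1.92 (adjusted p = 0.208 with no minimum on expression). Saa3 stood at 14.31, 17.58 and 17.68 in in vitro libraries and at 11.64, 12.54 and 12.49 in in vivo libraries, a difference of 4.30 ± 1.35 (adjusted p = 0.122). Lcn2 stood at 15.14, 16.08 and 14.95 in in vitro libraries and at 11.44, 11.46 and 11.32 in in vivo libraries (3.98 ± 1.21). Groups without overlap, in vitro higher, made up 11.6% of all genes. No gene of the 16459 passed limma's adjusted threshold in this comparison (0% of all genes), 5341 had an unadjusted p under 0.05, and 7 of the 8 members were among these.

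Those calls depended on in vivo library 1. Without in vivo library 1, which leaves both in vivo libraries pigment-rich, 8085 genes passed, 6 members among them, all higher in in vitro cells, as were 27.2% of all genes. They were Saa1 (by 3.57), Saa2 (3.56), Lcn2 (4.0), Hp (4.40), Slpi (4.55) and Ptx3 (7.18). With in vivo library 1 alone, no gene passed, and the differences were 4.88 ± 1.30 for Saa3, 3.95 ± 0.77 for Lcn2, 3.30 ± 0.78 for Saa1, 3.64 ± 0.81 for Saa2, 2.92 ± 1.32 for Hp, 2.67 ± 0.84 for Slpi, 1.40 ± 0.63 for Ptx3 and 1.75 ± 0.66 for Cp. All 8 differences were positive in that fit of fibroblast-rich libraries.

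Cells of treated mice with primed paws were also compared with cells of non-primed paws, which asks how far the treated cells differ from cells with a single crystal exposure. Saa1 stood at 3.74, 3.65 and 3.31 in in vivo libraries and at 3.06, 4.77 and 1.71 in non-primed libraries, and Saa2 at 1.92, 2.01 and 2 in in vivo libraries and at 0.87, 2.74 and 1.7 in non-primed libraries. The groups overlapped for both genes. The difference was 0.39 ± 0.74 for Saa1 and 0.21 ± 0.59 for Saa2, and the sign of each turned under quantile normalization (-0.078 for Saa1 and -0.21 for Saa2). Saa3 stood at 11.64, 12.54 and 12.49 in in vivo libraries and at 10.97, 13.43 and 7.36 in non-primed libraries, a difference of 1.64 ± 1.35 (adjusted p = 0.47) with a 95% confidence interval from -1.36 to 4.63. Lcn2 was the member without overlap, at 11.44, 11.46 and 11.32 in in vivo libraries and at 9.72, 11.13 and 5.15 in non-primed libraries (2.74 ± 1.21, adjusted p = 0.24), where 8.71% of all genes lay higher without overlap. Cp was lower in in vivo cells by value, -1.03 ± 0.55 (adjusted p = 0.293). No member and no other gene passed in limma's fit (0% of all genes), while 3366 genes, 2 members among them, had an unadjusted p under 0.05. Between in vivo libraries 2 and 3 and the non-primed libraries, all pigment-rich, the differences were 1.93 ± 1.72 for Saa3, 2.72 ± 1.77 for Lcn2, 1.42 ± 1.25 for Ptx3 and -0.54 ± 0.38 for Cp, and again no gene passed.

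Read per exon length, the members covered nearly the whole range of expression. Taking rlog minus log2 of the exon length in kilobases as the level, Saa3 ranked 12, 6 and 4 among the 16459 genes in the primed vehicle libraries. It ranked 417, 29 and 18 in in vitro libraries, 3024, 1374 and 1416 in in vivo libraries, and 4343, 665 and 10620 in non-primed libraries. Lcn2 ranked 171, 38 and 52 in primed vehicle libraries and 3435, 3204 and 3538 in in vivo libraries. Ptx3 held its highest ranks in in vitro libraries, at 31, 31 and 55, against 191, 52 and 102 in primed vehicle libraries. The level per kilobase in primed vehicle cells averaged 17.64 ± 0.83 for Saa3, 15.15 ± 1.07 for Lcn2, 14.69 ± 0.85 for Ptx3, 13.71 ± 0.45 for Hp, 13.62 ± 0.43 for Slpi, 12.05 ± 0.34 for Cp, 7.58 ± 0.16 for Saa1 and 6.33 ± 0.56 for Saa2 (SD, n = 3). In that order Lcn2 and Ptx3, and Hp and Slpi, differed by less than the SD of either. Saa1 and Saa2 thus lay far below Saa3 at the other end of the order, and Saa1 ranked 9095, 9452 and 8873. Exon lengths were merged over all annotated transcripts (9566 bases for Cp, 2478 for Saa1 and 2518 for Saa2, against 1606 for Hp and 1180 for Slpi). Genes whose expressed transcripts are shorter than that are understated, so the order is approximate.

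**Figure D3:**
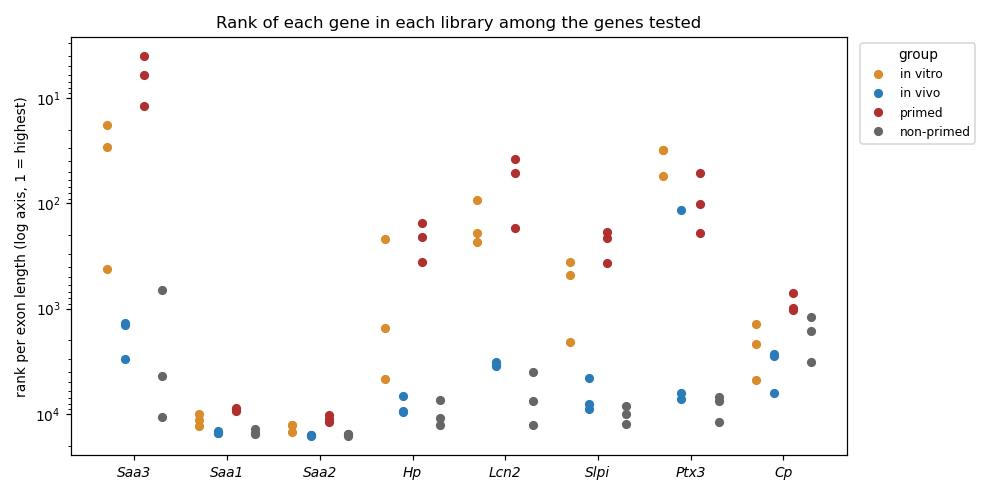
Rank of each tested gene among 16459 genes in each library, by rlog per exon length, on a log axis with rank 1 at the top; each point is a library, coloured by group. Saa3 reaches ranks 12, 6 and 4 in primed vehicle libraries, and Ptx3 is split in the in vivo group, with library 1 at 115 and the other libraries at 7181 and 6292.

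The cytokines and receptors that act upstream of these genes were read as a list of 15 chosen for their role. To set beside this list and those that follow, 28.9% of all genes rose in primed against non-primed cells. In in vivo against primed vehicle cells 21.8% of all genes fell and 17.9% rose. In in vitro against primed vehicle cells 2.76% fell, and in the fit of the 6 libraries compared 16.9% fell and 13.4% rose. Of 14 tested, 11 rose in primed against non-primed cells (median 3.50), and 9 fell and 1 rose in in vivo against primed vehicle cells (median -3.07). In in vitro against primed vehicle cells 3 of the 14 fell and none rose (median -0.66), and in the fit of the 6 libraries compared 6 fell and 3 rose. With in vivo library 1 alone, the median against primed vehicle cells was -0.97, and genes differed in both directions, such as Il6 (-8.07) and Osmr (1.48). Il1b, which encodes interleukin-1 beta, stood at 1.63, 2.92 and 3.11 in in vitro libraries, at 1.82, 1.91 and 1.23 in in vivo libraries and at 8.7, 11.07 and 11.8 in primed vehicle libraries, with 1.61, 2.12 and 1.05 in non-primed libraries. Both treated groups thus lay far below every primed vehicle library. Il1b passed the minimum through its primed vehicle mean (10.52), with means of 1.59 to 2.55 in the other groups. Counts and medians over this list and those that follow are therefore descriptions. Il6 stood at 9.13, 10.06 and 11.94 in in vitro libraries, at 6.91, 5.18 and 5.36 in in vivo libraries and at 14.6, 15.15 and 15.2 in primed vehicle libraries. Among the receptors, some were split within the in vivo group and others were not. Il1r1, the signalling receptor of interleukin-1, stood at 10, 4.43 and 4.37 in in vivo libraries 1, 2 and 3, against 9.6, 10.14 and 10.13 in primed vehicle libraries. Osmr, the oncostatin M receptor subunit, stood at 14.9, 9.23 and 9.31 in in vivo libraries and at 12.99, 13.7 and 13.57 in primed vehicle libraries. Il1rap, the accessory chain of the interleukin-1 receptor, was even in the in vivo group, at 11.63, 11.58 and 11.68, against 12.82, 12.98 and 13.04 in primed vehicle libraries; it was named here after its values were seen.

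Of 12 transcription factors and feedback regulators tested, all 12 rose in primed against non-primed cells (median 2.82). In in vivo against primed vehicle cells 10 fell (median -2.22). The median with in vivo library 1 alone was -1.11. In in vitro against primed vehicle cells none passed in limma's fit of all 12 libraries (median -0.40). In the fit of the 6 compared 2 rose and 4 fell. Cebpd, a C/EBP factor of the acute-phase response, stood at 13.48, 13.57 and 13.35 in in vitro libraries, at 13.12, 9.43 and 9.66 in in vivo libraries and at 13, 13.37 and 13.08 in primed vehicle libraries. Nfkbiz, the NF-kB cofactor needed for Lcn2 induction in mouse cells, stood at 12.55, 10.74 and 10.87 in in vivo libraries and at 13.55, 13.99 and 14.27 in primed vehicle libraries, and fell by 2.55 ± 0.42 (adjusted p = 0.00318), also with in vivo library 1 alone (-1.38, adjusted p = 0.0133). Cebpb fell by 2.95 ± 0.84 over the 3 in vivo libraries (adjusted p = 0.0221) and differed by -0.68 with library 1 alone (adjusted p = 0.0273). Socs3, the feedback inhibitor of gp130 signalling, and Stat3 did not pass in in vivo against primed vehicle cells (-2.21 ± 0.98 and -0.46 ± 0.31).

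Of 24 other acute-phase genes listed, 11 were tested, and 9 of these rose in primed against non-primed cells (median 4.97). In in vivo against primed vehicle cells 5 of 11 fell (median -2.66). With in vivo library 1 alone the median was -0.54, and genes differed in both directions, such as C3 (-2.77) and Tnfaip6 (1.65). In in vitro against primed vehicle cells 1 rose and none fell (median -0.13), and in the fit of the 6 libraries compared 3 rose and none fell. The 1 that rose in the fit of all 12 libraries was Tnfaip6, whose hyaluronan-binding product is a matrix partner of Ptx3. It stood at 9.76, 9.7 and 9.22 in in vitro libraries and at 7.83, 7.39 and 7.81 in primed vehicle libraries, and rose by 1.88 ± 0.42 (adjusted p = 0.0379). Lbp, the lipopolysaccharide-binding protein, fell by 3.75 ± 1.06 in in vivo against primed vehicle cells (adjusted p = 0.0212), a call that was lost with in vivo library 1 alone (-1.52, adjusted p = 0.154). It stood at 11.03, 7.82 and 7.56 in in vivo libraries and at 13.54, 13.63 and 12.22 in in vitro libraries, against 11.8, 13.29 and 12.58 in primed vehicle ones. Saa4, the constitutive serum amyloid gene, was under the minimum on average. It stood at 0.6, 2.65 and 2.7 in in vitro libraries, at 0.74, 0.51 and 1.29 in in vivo libraries and at 6.53, 6.58 and 6.53 in primed vehicle libraries, so that neither treated group overlapped with these.

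**Figure D4:**
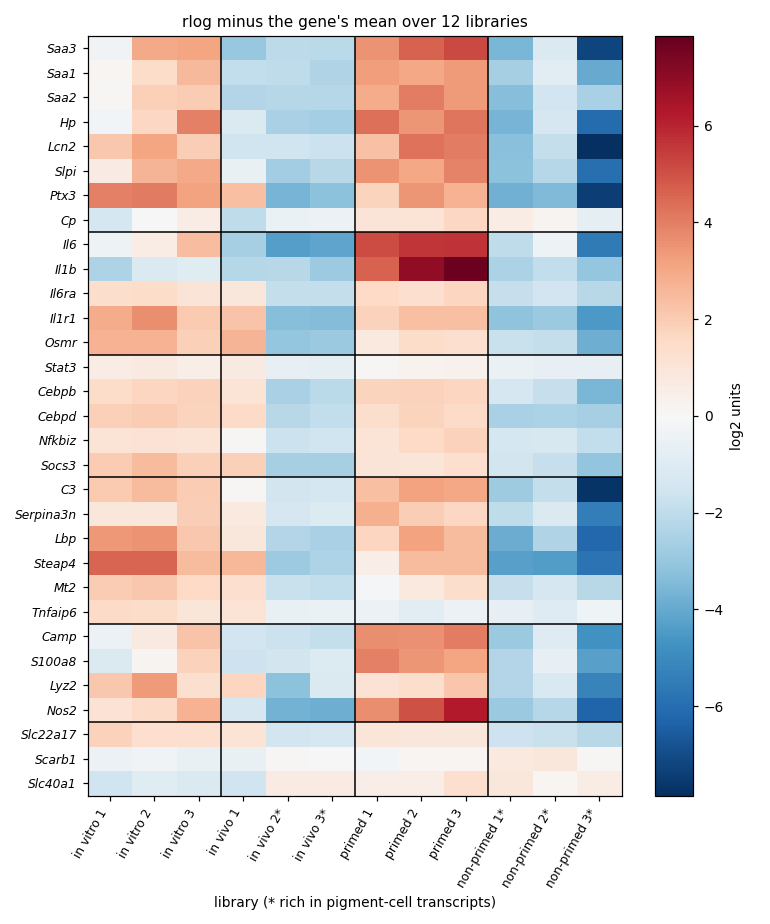
Rlog of the 8 tested members (top block) and of named cytokines and receptors, regulators, other acute-phase genes, other antimicrobial genes, and receptors and partners, each minus its own mean over the 12 libraries (log2 units, colour); asterisks mark libraries rich in pigment-cell transcripts. In vivo library 1 resembles the other in vivo libraries for Saa3 to Slpi, and lies above in vivo libraries 2 and 3, near the in vitro and primed vehicle libraries, for Ptx3, Il1r1, Osmr and Cebpd.

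Of 18 other antimicrobial genes 6 were tested. All 6 rose in primed against non-primed cells (median 6.29). In in vivo against primed vehicle cells 5 fell (median -4.58, and -4.01 with library 1 alone). None passed in in vitro against primed vehicle cells in limma's fit of all 12 libraries (median -2.01), and 3 fell in the fit of the 6 compared. Camp, the cathelicidin gene, stood at 6.42, 7.64 and 9.12 in in vitro libraries, at 5.41, 5.24 and 5.03 in in vivo libraries and at 10.58, 10.5 and 10.92 in primed vehicle libraries. It fell by 5.44 ± 0.87 in in vivo cells (adjusted p = 0.00294). S100a8, a calprotectin subunit, stood at 6.59, 7.98 and 9.55 in in vitro libraries, at 6.14, 6.28 and 6.68 in in vivo libraries and at 11.72, 11.18 and 10.81 in primed vehicle libraries. S100a9, which encodes its usual partner, stayed between -0.59 and 0.99 in all 12 libraries. Lyz2, the lysozyme of macrophages, did not pass in in vivo against primed vehicle cells (-2.43, adjusted p = 0.134).

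Among 10 tested receptors and partners 6 rose in primed against non-primed cells (median 3.33), where 28.9% of all genes rose. In in vivo against primed vehicle cells 4 of the 10 fell (median -2.26), where 21.8% of all genes fell. In in vitro against primed vehicle cells 1 of the 10 fell (median -0.89), where 2.76% of all genes fell. With in vivo library 1 alone the median against primed vehicle cells was -1.35. In the fit of the 6 libraries of the in vitro comparison 5 fell and 2 rose. Fpr2, the formyl peptide receptor that also binds serum amyloid A, was just under the minimum. It stood at 2.59, 3.5 and 2.59 in in vitro libraries, at 0.83, 1.97 and 1.67 in in vivo libraries and at 5.79, 7.02 and 7.54 in primed vehicle libraries. Slc40a1, the iron exporter ferroportin that works with ceruloplasmin, stood at 7.55, 8.14 and 7.99 in in vitro libraries, at 7.54, 9.75 and 9.73 in in vivo libraries and at 9.66, 9.61 and 10.4 in primed vehicle libraries. The difference of in vitro from primed vehicle cells was -2.0 ± 0.53 (adjusted p = 0.0589), and Slc40a1 fell in the fit of those 6 libraries (adjusted p = 0.0038). As for Cp, in vivo library 1 was the lowest of its group. Slc22a17, a receptor for lipocalin 2, rose by 2.74 ± 0.54 in primed cells (adjusted p = 0.0032), and Scarb1, a lipoprotein receptor that takes up serum amyloid A, did not pass (-0.54 ± 0.23). Cd163, the macrophage receptor for haptoglobin complexes, stayed between -0.42 and 1.3.

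Several members are also products of neutrophils, hepatocytes and epithelia, so the defining markers of these cells were read in the same libraries. Of 12 neutrophil markers, 8 stayed under 3 in every library, namely S100a9, Ngp, Ltf, Mpo, Elane, Ly6g, Retnlg and Cxcr2, and the list's mean lay between 1.37 and 2.6 in in vitro, 1.19 and 1.38 in in vivo, 2.9 and 3.6 in primed vehicle and 0.53 and 1.6 in non-primed libraries. The 3 tested markers, Camp, S100a8 and Mmp8, rose in primed against non-primed cells and fell in in vivo against primed vehicle cells. With in vivo library 1 alone their median difference was -5.25. Their part in the members' differences was not tested. Of 10 hepatocyte markers 6 stayed under 3 in every library, with Alb at 2.37 at most and the fibrinogen genes Fga and Fgb below 0 on the rlog scale. Trf reached 9.52, Apoa2 6.04, Apoa1 3.91 and Cps1 3.39, and the list's mean lay between 0.54 and 1.64 over all libraries. Of the 2 tested, Apoa2 and Trf, 1 fell in primed against non-primed cells. The part of the hepatocyte list in the members' differences was not tested. Of 9 epithelial markers 3 stayed under 3 in every library, the keratins Krt5, Krt14 and Krt8, while Dsp reached 8.7, Krt10 7.23, Cdh1 6.14, Trp63 4.53, Krt18 4.05 and Epcam 3.68. The list's mean lay between 1.92 and 2.58 in in vitro, 1.31 and 2.48 in in vivo, 2.5 and 3.02 in primed vehicle and 0.68 and 1.69 in non-primed libraries. Of the 3 tested, Krt10 rose and Cdh1 fell in primed against non-primed cells, and Krt10 fell in in vivo against primed vehicle cells. With in vivo library 1 alone the median of the 3 was 0.23. The part of this list in the members' differences was not tested. Macrophage markers were present, with all 11 reaching 3, and their mean lay between 8.06 and 10.19 in in vitro, 4.17 and 8.12 in in vivo, 8.75 and 9.78 in primed vehicle and 3.35 and 6.42 in non-primed libraries. Of these 11, 9 rose in primed against non-primed cells and 7 fell in in vivo against primed vehicle cells. With in vivo library 1 alone the median of the 11 was -1.31. The part of these markers in the members' differences was not tested.

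The genes whose pattern over the 12 libraries was most like each member's were taken by the smallest mean absolute difference after centring each gene on its own mean. For Saa3 they were the stromelysin gene Mmp3 (0.56 log2 units), the enkephalin precursor gene Penk (0.72) and Hp (0.79), and for Hp they were Penk (0.52), Slpi (0.60) and the bradykinin receptor gene Bdkrb1 (0.62). For Lcn2 they were the complement gene C3 (0.47), the arginine transporter gene Slc7a2 (0.50) and Chil1 (0.65). For Saa2 the nearest gene was Saa1 (0.48), and for Saa1 D030025P21Rik (0.38) and the bradykinin receptor gene Bdkrb2 (0.44). Ptx3 had other neighbours, the chemokine gene Cxcl12 (0.46), Cpxm2 (0.55) and the fibrillin gene Fbn1 (0.59). For Slpi they were Rasl12, Srgn and Clmp (0.52 to 0.57), and for Cp D630003M21Rik, Ecscr and Parp12 (0.34 to 0.37). All these distances rest on the same 12 libraries, which share the pigment-cell split.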

How the data were processed

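Polyadenylated RNA of 12 cultures was sequenced from stranded libraries, per the labels' protocols. Per the submitters' processing notes, the authors worked with GRCm38, cutadapt 1.18, STAR 2.6.1c, DESeq2 1.24.0 and Subread 1.6.1 (featureCounts). Their settings, gene annotation and use of strand in counting are not given in these sources. Values as deposited are log2 values (rlog), as the table's name and range (-2.24 to 20.6) show, and hold no counts, so depth is unknown. All 55413 identifiers matched a symbol. Genes with a mean rlog of at least 3 were kept. A model with a mean for each group was fitted over 12 libraries with limma 3.58.1 in R 4.3.3 (eBayes with a trend). Tests were two-sided with Benjamini-Hochberg adjustment over the 16459 genes. The procedure was tested on simulated data. An exact permutation test of 3 against 3 reaches p = 0.1 at best, so none is given. Cp overlaps exons of Hps3 on the opposite strand by 108 bases, so its values are uncertain without the strand setting.

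The members, the gene lists and the tests were chosen with earlier results of these data known. Named genes were all members, genes fixed for their role in each list, and the 3 nearest in pattern. Alternatives were other minima, scalings, fits of the libraries compared, a replicate block, each library left out, and splits by pigment-cell content.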

Additional observations from a re-analysis of the deposited data

How the results depend on the processing

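Of 499 values of single members under the alternatives, 477 kept their sign and their side of the threshold. The exceptions were Cp in primed against non-primed cells, Ptx3 in in vivo against primed vehicle cells, Saa1, Saa2 and Cp in in vitro against primed vehicle cells, 6 members in in vitro against in vivo treated cells without in vivo library 1, and 4 turned signs. For in vivo treated against non-primed cells Saa1 turned to -0.078 and Saa2 to -0.21 under quantile normalization. Leaving out a library in turn gave -0.35 (without non-primed library 3) to 1.182 for Saa1 and -0.24 (without non-primed library 1) to 0.69 for Saa2.

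The number of genes called depended far more on the fit. In vivo against primed vehicle cells gave 3950 genes with the 6 libraries compared, 3365 with in vivo library 1 alone, and 2435 (without in vivo library 3) to 9962 (without in vivo library 1) leaving out a library in turn, in place of 6531. In vitro against primed vehicle cells gave 1180 with no minimum, 470 with a minimum of 5, 1155 with quantile normalization, 4983 with the 6 libraries compared, when 3 members fell, and 12 (without in vitro library 2) to 367 (without in vitro library 3) leaving out a library, in place of 743. In vitro against in vivo cells gave 1 gene with no minimum and 0 to 8085 (without in vivo library 1) leaving out a library, with 0 to 6 members. In vivo against non-primed cells gave 2 genes with quantile normalization, and 0 to 2812 (without non-primed library 3) leaving out a library. In the first 2 of these comparisons each of the 6 libraries, left out, moved the count by over 1.5 times. With quantile normalization the median of all genes was -0.24, in place of 0.05, in primed against non-primed cells (3858 genes higher and 5680 lower, in place of 4754 and 3774). In in vivo against primed vehicle cells it was 0.19, in place of -0.05 (4595 higher and 2967 lower, in place of 2946 and 3585; with median-centred libraries 4029 and 2964), and in in vitro against primed vehicle cells 573 were higher and 582 lower, in place of 289 and 454. The cause of these shifts was not tested.

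Same-numbered libraries deviated together in 4 of 18 pairs (correlation -0.43 to 0.37). The labels do not say whether a number marks shared animals. These correlations cannot decide it, since in vivo libraries of different numbers also differed in pigment-cell content. With the number as a replicate block 173 genes passed in in vitro against primed vehicle cells, 8141 in primed against non-primed and 5977 in in vivo against primed vehicle cells, and no member's call changed.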
